A study of Rattus norvegicus with 12 samples.

Results

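The genes described here encode the enzymes of glycolysis, gluconeogenesis, glycogen metabolism, the pentose phosphate pathway and the pyruvate dehydrogenase step. They were chosen by name, 44 in all, and a gene was measured where the array annotation gave a probe set its symbol and no other. This left 40 of the 10411 genes measured on the array, each represented by its brightest probe set over the 12 arrays. Dlat had no probe set listed, and Gapdh, Pkm and G6pc1 had only probe sets that carry several symbols or are controls of the array.

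RNA of whole pancreas from adult male Wistar rats was hybridized to Affymetrix RAE230-A arrays, with 3 arrays per group and RNA of 3 rats pooled on each array. Healthy untreated (HU) and diabetic untreated (DU) animals were kept for 5 to 6 weeks on deionized water. Healthy treated (HT) and diabetic treated (DT) animals drank sodium tungstate, according to the sample labels at 0.7 g/L in the first week and at 2 g/L in the 4 to 5 weeks that followed. Diabetes in DU and DT was induced by an injection of streptozotocin (STZ), a toxin of the insulin-producing beta cells. Spread was therefore known between pools of rats and not between single rats, and this is what the p-values refer to. Values are log2 expression after RMA, which adjusts the background, equalizes the arrays and summarizes the probes of each probe set, so that a difference of 1 is a 2-fold change, and they are compared between groups and never between genes.

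Glycolysis splits glucose into pyruvate, and gluconeogenesis runs the same road backwards, with its own enzymes at the steps that cannot be reversed. Fructose-1,6-bisphosphatase, which removes a phosphate from fructose-1,6-bisphosphate, is such an enzyme and opposes phosphofructokinase. It has a liver type encoded by Fbp1 and a muscle type encoded by Fbp2. Glycogen is the branched store of glucose, and the pentose phosphate pathway makes NADPH and ribose. Acinar cells, which make digestive enzymes, form most of the pancreas, and in beta cells the metabolism of glucose triggers insulin release.

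Of the 40 genes, 2 were higher and 2 were lower in DU compared to HU, which is 10% of them, against 3.2% of all 15866 probe sets tested (1.47% higher and 1.73% lower, adjusted p under 0.05, limma). Fbp1 and Fbp2 were the 2 higher genes, while Pygl, the liver glycogen phosphorylase, and Pgd, 6-phosphogluconate dehydrogenase of the pentose phosphate pathway, were the 2 lower genes. In DT vs. DU, 2 genes were called (5%, against 1.12% of all probe sets), and these were again Fbp1 and Fbp2, both lower (0.46% of all probe sets were). No gene of the 40 was called in DT vs. HU, where 1.32% of all probe sets were, and none in HT vs. HU, where the share was 0.0063%. At an unadjusted p under 0.05, 9 genes passed in DT vs. HU (16.6% of all probe sets) and 2 in HT vs. HU (5.41%), and no gene reached a B-statistic above 0 in either (1.18% and 0% of all probe sets). The same counts were 12 genes in DU vs. HU (20.2%), 10 when DT was set against DU (9.89%) and 9 in the interaction, the tungstate change in diabetic minus that in healthy animals (8.75%). By the B-statistic, the study's own criterion, Fbp1 and Fbp2 were the 2 genes called in DU vs. HU (1.82% of all probe sets), the 2 called when DT was set against DU (1.05%) and the 2 called in the interaction (0.58%). The median log2 fold change over the 40 genes was -0.03 in DU vs. HU, 0.01 when DT was set against DU, 0.00 for DT against HU and -0.04 for HT against HU. Over all probe sets it was -0.02, 0.00, -0.02 and -0.00.

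Fbp1 measured 7.26, 7.29 and 6.78 in HU, 7.04, 7.25 and 6.88 in HT, 8.24, 8.42 and 8.11 in DU, and 7.46, 7.01 and 7.13 in DT. The 3 DU pools lay above all 9 other pools, and the DT pools lay within or just above the range of the healthy ones. Compared to HU, the level in DU was 1.15 higher on the log2 scale (SE 0.15, n = 3 pools per group, limma adjusted p = 0.000967). From DU to DT it fell by 1.06 (adjusted p = 0.00244), a 2.08-fold lower level. DT and HU differed by 0.09, with a 95% interval from -0.24 to 0.42 (adjusted p = 0.805).

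Fbp2 measured 8.18, 8.36 and 8.24 in HU, 8.20, 8.14 and 8.11 in HT, 9.89, 9.53 and 9.52 in DU, and 8.33, 7.93 and 8.30 in DT. Again the DU pools stood clear of the other 9 pools, by more than 1 log2 unit. The difference between DU and HU was 1.39 (SE 0.12, limma adjusted p = 1.77e-05). Treated diabetic animals were below untreated ones by -1.46 (SE 0.12, adjusted p = 1.64e-05), a 2.75-fold lower level. The level in DT differed from HU by -0.07, with a 95% interval from -0.33 to 0.19 (adjusted p = 0.800).

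**Figure D1:**
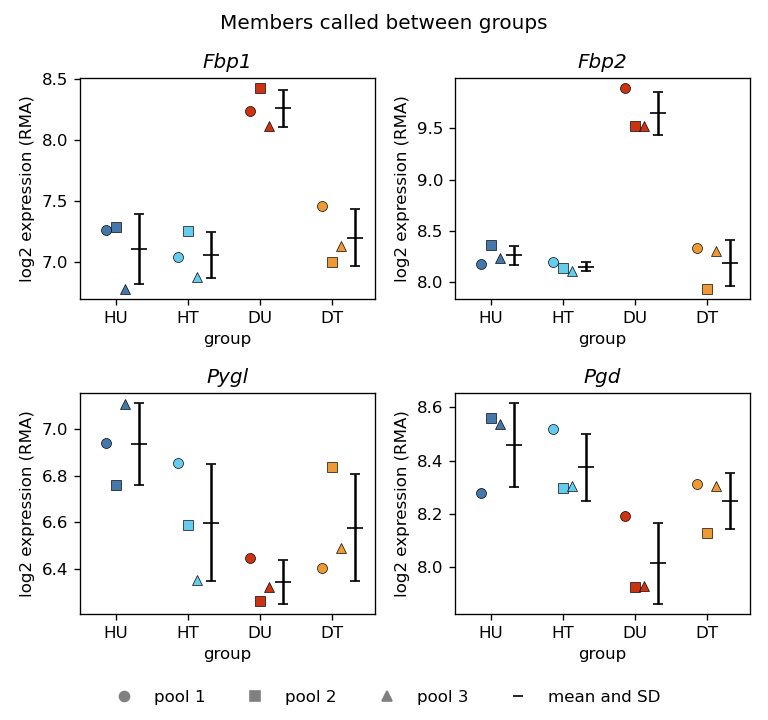
Log2 expression (RMA, vertical axis) of the 4 genes called in DU vs. HU, by group (horizontal axis), with each pool as a symbol and the group mean with its SD (n = 3 pools) as a bar to the right. The DU pools of Fbp1 (8.11 to 8.42) and Fbp2 (9.52 to 9.89) lie above every other pool, and those of Pgd (7.92 to 8.19) lie below every HU pool. The vertical axes differ between panels and do not start at 0.

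In healthy animals, tungstate gave no call for either bisphosphatase gene. HT differed from HU by -0.05 for Fbp1 (95% interval -0.38 to 0.28) and by -0.11 for Fbp2 (-0.37 to 0.15). The difference between the tungstate change in diabetic and in healthy animals was tested as an interaction, which called 1 of the 40 genes (2.5%, against 0.422% of all probe sets, 0.151% downward). This gene was Fbp2, with -1.35 (SE 0.17, limma adjusted p = 0.0018). For Fbp1 the interaction was -1.01 (SE 0.22) and missed the threshold (adjusted p = 0.0796).

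Scanning took 6 days and used chips of 3 lots, and DU and HU arrays were never scanned on the same day. With the scan day in the model as a block, the DU vs. HU difference was estimated only through other groups that shared days, and no gene of the 40 was called. Fbp1 then differed by 1.63 (adjusted p = 0.144) and Fbp2 by 1.88 (adjusted p = 0.0626). In DT vs. DU, where DU1 shared a day with DT1 and DT2, both calls held under that block, at -1.01 (adjusted p = 0.0348) for Fbp1 and -1.76 (adjusted p = 0.00161) for Fbp2. With the chip lot as a block, both held in both comparisons, at 1.40 and 1.42 in DU vs. HU (adjusted p = 0.000645 and 0.000731). Within chip lot 1, DU1 and DU2 exceeded HU3 by 1.55 for Fbp1 and by 1.47 for Fbp2. HU3 was the only HU array of that lot, and its Fbp1 level (6.78) was the lowest of the 12 arrays. In DT vs. HU, Fbp1 differed by 0.62 with the scan day as a block (limma adjusted p = 0.674). With the chip lot as a block it differed by 0.34 (adjusted p = 0.406). The corresponding Fbp2 differences were 0.12 and -0.04 (adjusted p = 0.952 and 0.950). Within chip lot 1, DT1 and DT2 differed from HU3 by 0.45 for Fbp1 and by -0.11 for Fbp2.

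Other cell types of the sample were checked because Fbp1 is known from liver and kidney and Fbp2 from muscle. In a whole organ, fewer cells of a type and less RNA per cell cannot be told apart. None of 7 liver markers was called in DU vs. HU, and their summed level ranged from 10.03 to 10.25 in HU and from 10.12 to 10.17 in DU on the log2 scale. Of 10 skeletal muscle markers, 1 was called, Myh1, and it was lower, while their sum ranged from 10.43 to 10.78 in HU, from 10.17 to 10.36 in DU and from 10.05 to 10.25 in DT. Single markers stood apart in the other direction without passing the test. The DU pools lay above all HU pools for 1 liver marker, Cyp2e1 (0.31, limma adjusted p = 0.106), and for 3 muscle markers, Mb, Actn3 and Tnni2, whose differences ran from 0.17 to 0.20 (adjusted p from 0.210 to 0.435). In the same comparison, the DU pools lay below all HU pools for 1 liver marker and 2 muscle markers. Pools thus did not overlap for 28.6% of the liver and 50% of the muscle markers, against 29.4% of all probe sets. The part of these markers in the levels of Fbp1 and Fbp2 was not tested.

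Of the pancreas's own cells, 13 acinar markers summed to 17.60 to 17.62 in HU, 17.48 to 17.51 in DU and 17.58 to 17.64 in DT. Of these, 1, the amylase gene Amy2a3, was called lower in DU vs. HU (-5.18) and higher in DT vs. DU (5.01). The median difference of the 13 in DU vs. HU was -0.02, with 5 positive and 8 negative. Among the positive ones was Ptf1a, at 0.57 (limma adjusted p = 0.0831). The 7 beta cell markers, of which 4 were called lower in DU vs. HU, summed to 14.61 to 14.73 in HU, 11.26 to 11.68 in DU and 11.81 to 13.09 in DT. Both sums separated DU from HU and from DT, as Fbp1 and Fbp2 did in the opposite direction, and their part in these results was not tested. The 3 erythroid markers, of which 1 was called lower, summed to 11.54 to 12.37 in HU and 10.70 to 11.06 in DU, and their part was not tested either.

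Markers of further cells also moved with the groups. Among 6 markers of islet cells other than beta cells, 1 was called in DU vs. HU and 0 when DT was set against DU. Their sum ranged from 10.88 to 11.14 in HU, from 11.19 to 11.44 in DU and from 10.66 to 11.78 in DT. The DU pools thus lay above all HU pools, as for Fbp1 and Fbp2, but within the range of DT. The called gene was Sst, the somatostatin gene of islet delta cells, higher in DU (1.32, limma adjusted p = 0.0217). Sst differed by -0.96 between DT and DU (adjusted p = 0.177), the same signs as Fbp1 and Fbp2. Gcg (0.11, then -0.16) and Ghrl (0.0005, then -0.04) shared these signs at smaller size. Ppy (-0.58, then 0.70), Pyy (-0.03, then 0.37) and Ttr (-0.004, then 0.07) had the reverse signs. Spp1, 1 of 6 duct markers, was called lower when DT was set against DU (-0.53, adjusted p = 0.0319). Of 8 stellate cell and fibroblast markers, 7 had a negative difference in that comparison, with 0 called by limma (1.12% of all probe sets were). At an unadjusted p under 0.05, 3 of the 8 passed, beside 9.89% of all probe sets. When the model held the scan day, 5 were called, and the share of all probe sets in that model was not counted. The collagen genes Col1a2 and Col3a1, 2 of the 8, were called lower in DT vs. HU, where 1.32% of all probe sets were called (-0.96 and -1.43, limma adjusted p = 0.0385 and 0.0188). The part of these markers in the results was not tested.

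In the RefSeq gene order of assembly GRCr8, Aopep, Fbp1 and Fbp2 follow each other on chromosome 17. Aopep, which encodes an aminopeptidase, differed by -0.27 in DU vs. HU (limma adjusted p = 0.0757) and by 0.14 in DT vs. DU (adjusted p = 0.597), with the reverse sign of the pair in both. Fbp1 and Fbp2 are paralogs, and whether the probes of either also bind RNA of the other was not tested.

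The other gluconeogenic genes did not share the pattern of Fbp1 and Fbp2. Pck2, which encodes the mitochondrial phosphoenolpyruvate carboxykinase, measured 9.38, 9.50 and 9.63 in HU, 9.27, 9.30 and 9.17 in DU, and 9.75, 9.88 and 9.41 in DT. Its DU pools lay below all HU and DT pools, with a difference of -0.26 in DU vs. HU (limma adjusted p = 0.21) and of 0.43 in DT vs. DU (adjusted p = 0.103). The latter passed the test with the chip lot as a block (adjusted p = 0.0269) and without DT3 (0.56, adjusted p = 0.00702). A further probe set of Pck2 ran the other way in DU vs. HU, at 0.16.

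Pck1, the cytosolic carboxykinase, measured 7.65, 7.53 and 7.75 in HU, 7.57, 7.63 and 7.52 in DU, and 7.60, 8.04 and 8.05 in DT. The groups overlapped, and the differences were -0.06 in DU vs. HU and 0.32 between DT and DU (limma adjusted p = 0.8 and 0.313). Pc, pyruvate carboxylase, measured 7.18, 7.18 and 6.86 in HU, 6.96, 6.80 and 6.66 in DU, and 6.97, 7.40 and 7.15 in DT. It differed by -0.27 in DU vs. HU (adjusted p = 0.233) and by 0.37 in DT vs. DU (adjusted p = 0.271). For these 3 genes the sign was the reverse of that of Fbp1 and Fbp2 in both comparisons, which share the DU pools, and no call was made. The 4 probe sets that carry G6pc1 together with Psme3 and Aoc3 cannot be assigned to glucose-6-phosphatase, and none of them was called in the 4 comparisons of groups.

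Among the 8 genes of glycogen metabolism, 1 was lower in DU vs. HU and none was called elsewhere. Pygl measured 6.94, 6.76 and 7.11 in HU, 6.85, 6.59 and 6.35 in HT, 6.45, 6.26 and 6.32 in DU, and 6.40, 6.84 and 6.49 in DT. The DU pools lay below all HU pools but overlapped those of HT and DT. The DU vs. HU difference was -0.59 (SE 0.14, limma adjusted p = 0.0364), -0.56 when the model held the chip lot (adjusted p = 0.158) and -0.42 when it held the scan day (adjusted p = 0.801). The call was lost without HU1, HU3, HT2 or any of the 3 DU pools, with adjusted p-values from 0.0565 to 0.122. HT vs. HU gave -0.34 (95% interval -0.64 to -0.04, adjusted p = 0.871).

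Pygb and Pygm, the brain and muscle phosphorylases, were not called. Pygb measured 7.22, 7.26 and 7.32 in HU, 7.63, 7.61 and 7.54 in DU, and 7.36, 7.50 and 7.18 in DT. Its DU pools lay above all HU and DT pools, with 0.33 in DU vs. HU (limma adjusted p = 0.0591) and -0.25 in DT vs. DU (adjusted p = 0.308). Without DT2, DT3 or the 3 arrays of chip lot 3, the former passed the test. It was 0.05 when the model held the scan day (limma adjusted p = 0.973) and 0.30 when it held the chip lot (adjusted p = 0.185). Pygm averaged 7.35 ± 0.17 in HU, 7.07 ± 0.13 in DU and 7.09 ± 0.24 in DT (SD, n = 3), and its difference of -0.28 in DU vs. HU did not pass (adjusted p = 0.262).

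Of the genes that build glycogen, Ugp2, which encodes the enzyme that makes UDP-glucose, measured 6.64, 6.35 and 6.55 in HU, 6.94, 6.90 and 6.79 in DU, and 6.80, 6.79 and 7.02 in DT. Both diabetic groups lay above all HU pools, by 0.36 in each case, and neither difference passed (limma adjusted p = 0.0635 for DU and 0.0929 for DT). Gbe1, the branching enzyme, measured 7.62, 7.79 and 7.94 in HU, 7.63, 7.80 and 7.72 in DU, and 8.24, 7.95 and 8.09 in DT. The DT pools were the highest of all 4 groups, at 0.38 above DU (adjusted p = 0.118) and 0.31 above HU (adjusted p = 0.148).

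The glycogen synthases were not called in any comparison. Gys1, the muscle type, averaged 8.21 ± 0.15 and 8.11 ± 0.02 in HU and HT, and 8.16 ± 0.12 and 8.15 ± 0.15 in DU and DT. Gys2, the liver type, ranged from 4.66 to 5.31 over the 12 pools. Pgm1, phosphoglucomutase, measured 7.50, 7.51 and 7.48 in HU, 7.65, 7.71 and 7.78 in HT and 7.67, 7.74 and 7.71 in DU, and had the smallest unadjusted p of the 40 genes in HT vs. HU (a difference of 0.21, limma adjusted p = 0.871). Its other probe set had the reverse sign in DU vs. HU (-0.30 against 0.21).

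**Figure D2:**
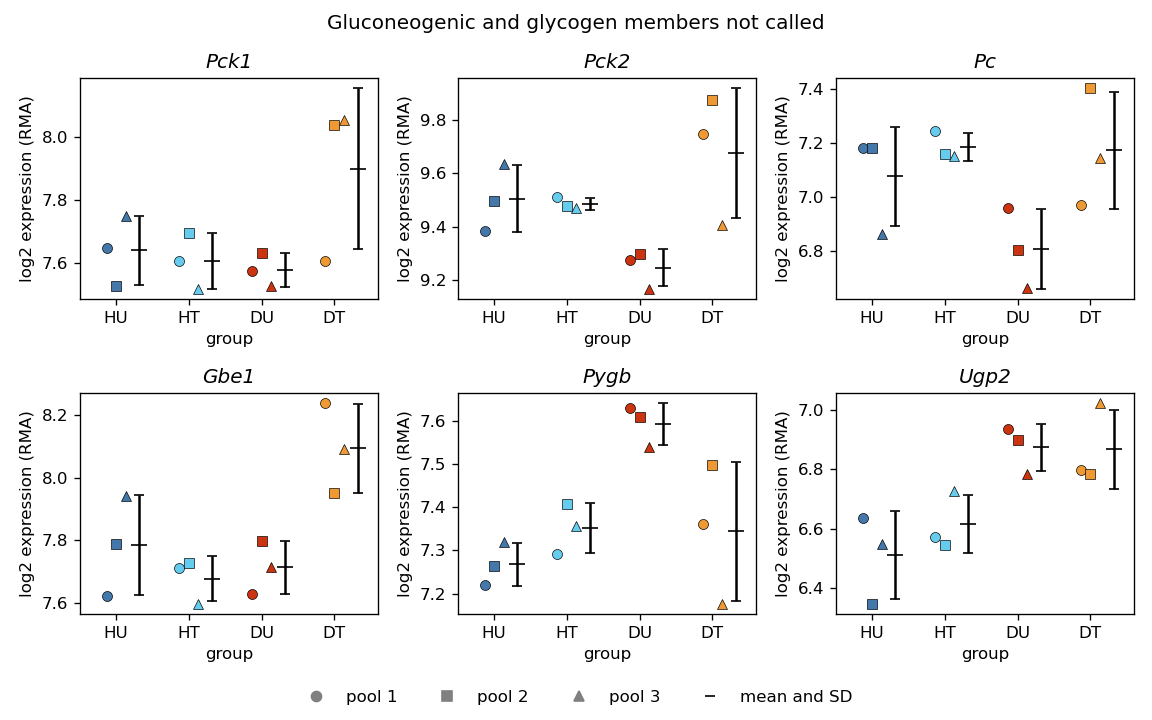
Log2 expression (RMA, vertical axis) of 3 gluconeogenic genes (Pck1, Pck2, Pc) and 3 glycogen genes (Gbe1, Pygb, Ugp2) that were not called, by group (horizontal axis), with each pool as a symbol and the mean with its SD (n = 3 pools) as a bar. Pck2 is lowest and Pygb highest in the DU pools, and the spans of the vertical axes, which do not start at 0, are under 1 log2 unit.

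Pgd was the only called gene of the 3 pentose phosphate genes measured. It measured 8.28, 8.56 and 8.54 in HU, 8.52, 8.30 and 8.30 in HT, 8.19, 7.92 and 7.93 in DU, and 8.31, 8.13 and 8.31 in DT. The DU pools lay below all healthy pools, with a difference of -0.44 from HU (SE 0.11, limma adjusted p = 0.0399). The call was lost when the model held the scan day (-0.15, adjusted p = 0.930) or the chip lot (adjusted p = 0.168) and without HU2, HU3, HT2, DU2 or DU3 (adjusted p from 0.0577 to 0.138). Over the 22 alternative settings run for it, the B-statistic not among them, the call held in 11. Taldo1, transaldolase, averaged 9.78 ± 0.20 in HU, 9.44 ± 0.13 in DU and 9.36 ± 0.32 in DT (SD, n = 3). Its differences from HU were -0.34 in DU (adjusted p = 0.204) and -0.42 in DT (adjusted p = 0.17), and the latter passed without DT3 (-0.58, adjusted p = 0.0412). Tkt, transketolase, averaged 8.24 ± 0.20 in HU, 8.41 ± 0.30 in DU and 8.55 ± 0.19 in DT and was not called.

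RefSeq promoters were matched by symbol for Fbp1, Pygl and Pgd. The window listed for Fbp1 lies within the RefSeq span of its own gene and is not shown. Those of Pygl and Pgd, the genes called lower in DU vs. HU, adjoin the gene's RefSeq span, and the 250 bases before the start are shown 5′ to 3′. They lie on the minus strand of GRCr8, at chr6:94476220-94476469 for Pygl, with 71.2% G and C, and at chr5:164882030-164882279 for Pgd, with 59.6%.
Pygl: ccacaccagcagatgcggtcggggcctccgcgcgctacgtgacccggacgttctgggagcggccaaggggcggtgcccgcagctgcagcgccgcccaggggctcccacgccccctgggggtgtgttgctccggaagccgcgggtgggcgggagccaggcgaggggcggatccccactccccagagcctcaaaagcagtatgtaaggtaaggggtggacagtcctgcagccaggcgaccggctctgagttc
Pgd: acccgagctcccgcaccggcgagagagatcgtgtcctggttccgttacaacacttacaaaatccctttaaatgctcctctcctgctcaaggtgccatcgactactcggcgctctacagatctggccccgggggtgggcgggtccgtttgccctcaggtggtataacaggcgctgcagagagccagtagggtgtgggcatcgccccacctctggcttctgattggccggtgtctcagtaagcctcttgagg

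On both strands, 3 motifs were searched in windows of 300 bases, 250 before and 50 after the start. CACGTG, the E-box, stood in 6.42% of 33469 promoters, TGACG, the core of the cyclic AMP response element, in 21.2%, and AGGTCA, a nuclear receptor site, in 16.2%. None of them was found in the windows of Pygl or Pgd, so no letter above is in capitals, and this says only that these letters are not in these windows.

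Glycolysis itself gave no call among 9 genes of its upper part and 7 of its lower part. Of all probe sets, 3.2% were called in DU vs. HU, 1.12% when DT was set against DU and 1.32% for DT against HU. At such shares, the absence of calls in lists this short does not set glycolysis apart from the rest of the array. At an unadjusted limma p under 0.05, 1 gene of each part passed in DU vs. HU, beside 20.2% of all probe sets. The hexokinases, which trap glucose in the cell, were Hk1 and Hk2. Hk1 measured 7.63, 7.38 and 7.75 in HU and 7.48, 7.61 and 8.40 in DU, and the high DU3 pool set its DU vs. HU difference of 0.24, which was -0.04 without that pool. Hk2 averaged 6.19 ± 0.15 in HU, 6.04 ± 0.12 in DU and 6.12 ± 0.27 in DT.

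The phosphofructokinases catalyse the step that Fbp1 and Fbp2 oppose. Pfkl, the liver type, measured 6.64, 6.68 and 6.58 in HU and 6.46, 6.52 and 7.35 in DU, again with DU3 apart, and differed by 0.14 with that pool and by -0.14 without it. Pfkm, the muscle type, measured 8.12, 8.31 and 8.04 in HU, 7.96, 7.89 and 7.81 in DU, and 8.11, 8.14 and 8.25 in DT. Its DU pools lay below the HU and DT pools, by -0.27 from HU (limma adjusted p = 0.112), and DT exceeded DU by 0.28 (adjusted p = 0.222), while a dimmer probe set of the gene differed by 0.30 in DU vs. HU. Pfkp, the platelet type, averaged 6.20 ± 0.05 in HU and 6.33 ± 0.04 in DU (adjusted p = 0.357).

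In lower glycolysis, log2 fold changes in DU vs. HU ran from -0.29 for Eno1, the enolase of most tissues, to 0.32 for Pgam1, a phosphoglycerate mutase (limma adjusted p = 0.17 and 0.248). Pklr, the pyruvate kinase of liver and red cells, averaged 7.10 ± 0.11 in HU, 6.94 ± 0.09 in DU and 6.96 ± 0.09 in DT. The probe set shared by Pkm and a pseudogene averaged 8.50 ± 0.08 in HU, 8.43 ± 0.06 in DU and 8.17 ± 0.14 in DT, with -0.33 in DT vs. HU (adjusted p = 0.0757). The probe set shared by Gapdh and Gapdhl10 differed by -0.20 in DU vs. HU (adjusted p = 0.536).

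At the end of the pathway, the lactate dehydrogenases were level in DU and HU. Ldha measured 7.92, 7.63 and 8.08 in HU, 7.90, 7.89 and 7.86 in DU, and 8.14, 8.06 and 8.27 in DT, and its DT pools lay above the DU pools by 0.28 (limma adjusted p = 0.396). Ldhb differed by 0.01 in DU vs. HU, with a 95% interval from -0.23 to 0.26. Pdha1, a subunit of pyruvate dehydrogenase, measured 8.89, 8.84 and 8.86 in HU, 8.73, 8.69 and 8.58 in HT, 9.22, 9.14 and 8.84 in DU, and 9.42, 9.13 and 9.10 in DT. The DT pools exceeded all healthy pools, by 0.35 over HU (adjusted p = 0.133). Another probe set of Pdha1, nearly as bright, differed by -0.01 in DT vs. HU and by -0.14 in DU vs. HU, where the one above gave 0.20 (adjusted p = 0.363 and 0.320). Pdk1, a kinase that inhibits this enzyme, averaged 6.79 ± 0.07 in HU and 6.87 ± 0.13 in DU, and its dimmer probe set differed by 0.56 (adjusted p = 0.0620).

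The 3 bifunctional enzymes Pfkfb1, Pfkfb2 and Pfkfb3, which set the level of the fructose-2,6-bisphosphate that inhibits fructose-1,6-bisphosphatase, differed by -0.08, -0.03 and 0.02 in DU vs. HU. None was called in any comparison. The 3 other probe sets of Pfkfb2, all dimmer, gave 0.37, 0.25 and -0.05 in DU vs. HU (limma adjusted p = 0.0774, 0.406 and 0.743).

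**Figure D3:**
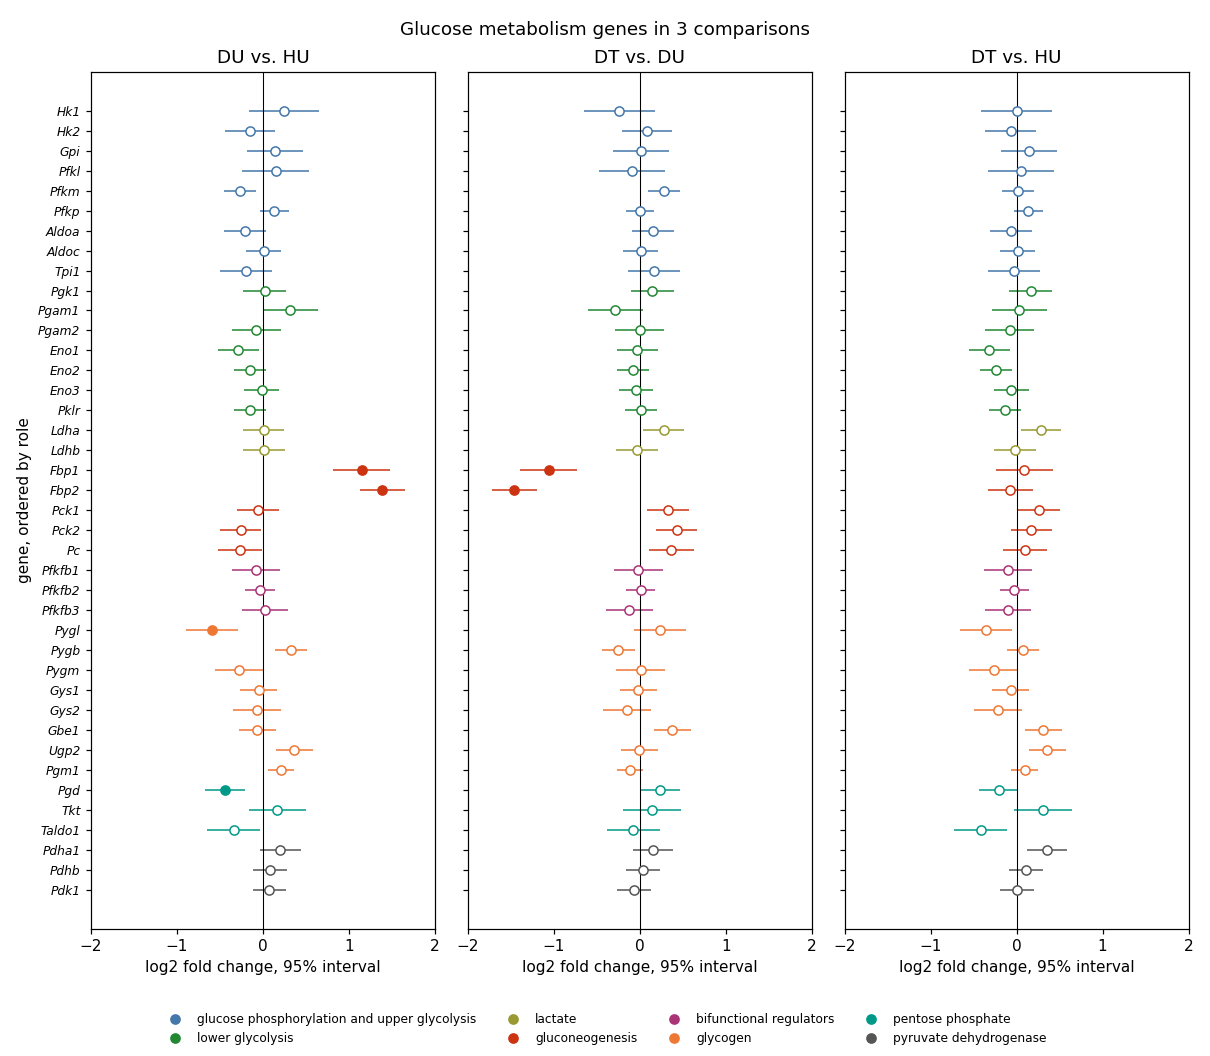
Log2 fold change (horizontal axis) of the 40 genes (vertical axis, ordered and coloured by role) in DU vs. HU, DT vs. DU and DT vs. HU, with 95% intervals from limma (n = 3 pools per group). Filled points have an adjusted p under 0.05. Fbp1 and Fbp2 lie to the right in DU vs. HU (1.15 and 1.39), to the left in DT vs. DU (-1.06 and -1.46) and at 0.09 and -0.07 in DT vs. HU.

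In the model without blocks, the 95% intervals of most genes not called lay within a 1.5-fold change. In DU vs. HU, 33 of the 36 genes not called had a 95% interval that lay within a 1.5-fold change in either direction, and the other 3 were Hk1, Pgam1 and Taldo1. In DT vs. DU the count was 33 of 38, in DT vs. HU 36 of 40 and in HT vs. HU 38 of 40. These intervals are not adjusted for the number of genes. Pools that did not overlap between the groups were seen for 13 genes (32.5%) in DU vs. HU, against 29.4% of all probe sets, and for 11 genes (27.5%) in DT vs. DU, against 13.9%. The counts were 6 genes (15%) for DT against HU and 3 (7.5%) for HT against HU, where 21.1% and 11.6% of all probe sets did so.

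Beyond these 40 genes, 84 further genes of glucose metabolism were listed, among them transporters, glycogen-regulating kinases and regulators of pyruvate entry, and 64 were measured. In DU vs. HU 1 was higher and 3 were lower (6.25%, beside the 3.2% of all probe sets), in DT vs. HU 1 was lower, and none was called in DT vs. DU, HT vs. HU or the interaction. At an unadjusted p under 0.05, 8, 5 and 7 of the 64 passed in these last 3 (9.89%, 5.41% and 8.75% of all probe sets).

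The higher gene was Pdk4, a kinase that inhibits pyruvate dehydrogenase and is known to rise in fasting and diabetes. It measured 6.32, 6.56 and 6.35 in HU, 6.42, 6.67 and 7.35 in HT, 7.30, 7.16 and 7.44 in DU, and 6.59, 6.90 and 6.86 in DT. The DU pools exceeded the HU and DT pools, by 0.89 over HU (limma adjusted p = 0.0183), and DT vs. DU gave -0.51 (adjusted p = 0.323), while HT3 alone of the healthy pools lay within the DU range. Mpc1, a subunit of the carrier that brings pyruvate into mitochondria, measured 8.05, 7.69 and 8.30 in HU, 7.46, 7.46 and 7.18 in DU, and 7.90, 7.63 and 7.90 in DT, with -0.65 in DU vs. HU (adjusted p = 0.0390) and 0.44 in DT vs. DU (adjusted p = 0.313).

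Phkg1, a catalytic subunit of phosphorylase kinase, measured 5.93, 6.08 and 5.88 in HU and 5.60, 5.60 and 5.48 in DU, a difference of -0.41 (limma adjusted p = 0.0257). Slc2a2, the glucose transporter of beta cells and liver, measured 7.29, 7.63 and 7.82 in HU, 5.67, 5.95 and 5.48 in DU, and 5.88, 5.42 and 5.84 in DT. Slc2a2 is also 1 of the 7 beta cell markers above, and 1 of the 4 of them called lower, so the same values stand in both lists. Unlike the bisphosphatase genes, Slc2a2 stayed low under tungstate, at -1.87 in DT vs. HU (adjusted p = 0.000172) and 0.01 in DT vs. DU (adjusted p = 0.995). Under the scan day block, none of the 4 genes passed in DU vs. HU, with differences of 0.25 for Pdk4, -0.29 for Mpc1, -0.18 for Phkg1 and -1.85 for Slc2a2. The chip lot in the model ended 3 of the 4 calls, those of Pdk4 (0.65, limma adjusted p = 0.101), Mpc1 (-0.65, adjusted p = 0.134) and Phkg1 (-0.30, adjusted p = 0.175), while Slc2a2 passed (-1.96, adjusted p = 0.000521).

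**Figure D4:**
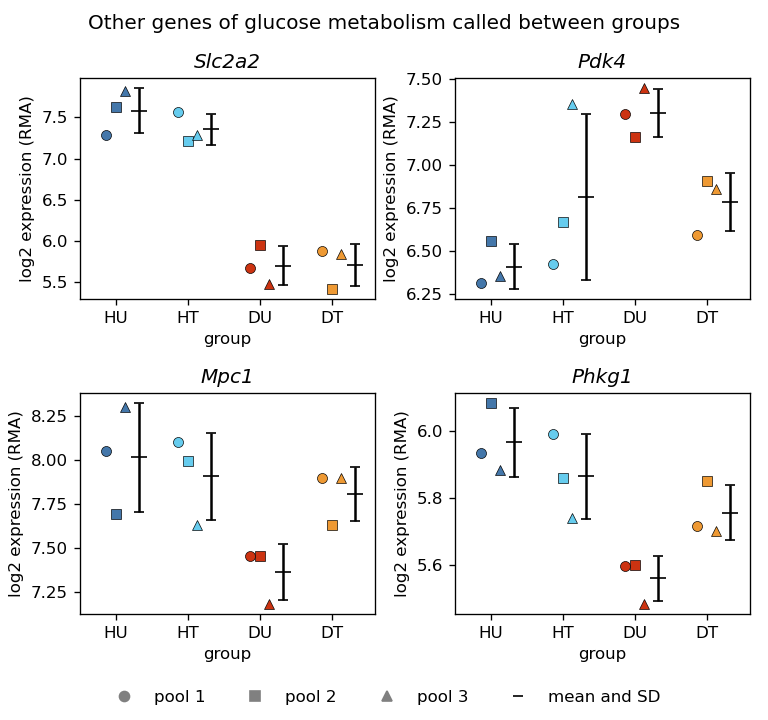
Log2 expression (RMA, vertical axis) of the 4 further genes of glucose metabolism called in DU vs. HU, by group (horizontal axis), with each pool as a symbol and the mean with its SD (n = 3 pools) as a bar. The DT pools of Slc2a2 (5.42 to 5.88) lie with the DU pools, and those of Pdk4 (6.59 to 6.90) lie between HU and DU. The vertical axes differ between panels and do not start at 0.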

How the data were processed

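Whole pancreas RNA from pools of 3 rats was hybridized to 12 Affymetrix RAE230-A arrays, grouped as titled in the labels (HU, HT, DU, DT, n = 3). The deposited values are log2 intensities, for which the authors ran RMA with Bioconductor's affy (version not given in the sources used here). They were used without transformation. The array medians lay between 6.63 and 6.70 and the correlations between arrays between 0.976 and 0.995. Precision is limited by the number of arrays.

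After removal of control probe sets, limma 3.58.1 (R 4.3.3) fitted 4 group means to each of 15866 probe sets, a procedure also tested on simulated arrays. Groups DU and DT were compared to HU, DT to DU and HT to HU, and the interaction was the tungstate change in diabetic minus that in healthy animals. A call is a Benjamini-Hochberg adjusted p under 0.05 over all probe sets. The study's own criterion (B-statistic over 0, prior proportion 0.01) was an alternative. Probe sets with several symbols were not assigned to a gene. Scan days and chip lots came from the deposited array records. Summed marker levels are log2 of the sum of linear levels. Described by name are genes called in any contrast, genes of regulated steps, and the 3 genes with the smallest p per contrast, not each in every group and contrast. The genes and lists were chosen with earlier results of these data known. Of the marker lists not described with the results, those of endothelial, leukocyte and adipocyte cells gave 0 limma calls in DU vs. HU (1 gene each at an unadjusted p under 0.05) and 0 when DT was set against DU (1, 0 and 1), and 2 of 8 pan-endocrine genes were lower in DU vs. HU.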

Additional observations from a re-analysis of the deposited data

Results flagged for a closer look

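The tungstate change of Fbp2 differed between diabetic and healthy animals by -1.35 on the log2 scale (limma interaction, SE 0.17, adjusted p = 0.0018). In diabetic animals the change was -1.46 and the 3 DT pools lay below the 3 DU pools, and in healthy animals it was -0.11 with overlapping pools. The interaction passed the test under every alternative run for it, with adjusted p-values from 0.00103 to 0.0286.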

How the results depend on the processing

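The 4 genes called in DU vs. HU became 0 when the model held the scan day, 2 when it held the chip lot and 2 by a B-statistic above 0, and leaving out 1 array in turn gave 2 to 6. Fbp1 and Fbp2 were called in DU vs. HU under all of these except the scan day, and in DT vs. DU under all of them. The DT vs. DU count was 2, became 3 when the model held the chip lot, with Pck2 added, and was 2 to 3 with 1 array left out. In DT vs. HU the 0 calls became 1 without DT3 (Taldo1), the range with 1 array left out being 0 to 1, and 2 without the 3 arrays of chip lot 3 (Taldo1 and Pdha1), a setting chosen after seeing the data. That setting kept 4 calls in DU vs. HU, but with Pygb and Ugp2 in place of Pygl and Pgd. In HT vs. HU the count was 0 throughout. In the interaction the 1 call became 2, with Fbp1 added, with the replicate block, with the chip lot, by the B-statistic and without DT1, the range with 1 array left out being 1 to 2. The replicate numbers gave no consistent pairing of the arrays, and same-numbered arrays deviated from their group means with correlations of -0.29 to 0.31. Some same-numbered arrays were each other's best match, such as DT2 with HU2 and DT3 with HU3 (0.31 in each case), and others were not. With the replicate block the DU vs. HU count was 3, and Pgd lost its call (adjusted p = 0.0504).

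Differences of Fbp1 and Fbp2 that were never called changed sign as follows. In DT vs. HU, leaving out 1 array gave -0.077 (without HU3) to 0.19 for Fbp1, also below 0 without DT1, and -0.14 to 0.057 (without DT2) for Fbp2, which was 0.12 with the scan day. In HT vs. HU, Fbp1 ranged from -0.22 to 0.040, above 0 without HU1, HU2 or HT3, and was 0.37 with the scan day and 0.038 without the arrays of chip lot 3. The causes were not tested. Fitting only the groups compared could not be done for the interaction. Probe sets near the lowest signals, such as that of Gys2, limit what can be seen.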
